A study of Sus scrofa with 18 samples.

Results

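Transthyretin, the product of TTR, carries thyroid hormone and the retinol-binding protein, and in the eye it is made mainly by the retinal pigment epithelium. Retinas of 18 piglets, each measured on 1 Affymetrix pig array, were ranked by the level of the single TTR probe set. The groups compared were chosen by that level, as the 6 highest (TTR-high) and the 6 lowest (TTR-low). These 12 of 18 arrays form the comparison, and the middle 6 were left out. The grouping used measured TTR values, so TTR is given only as a description and the tests ask which other genes differed along with it.

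The piglets were males of a Landrace and Large White cross, enrolled at 3 days of age and sampled at postnatal day 38. All received milk replacer, in the control group alone (9 piglets) and in the other group with added sialyllactose (9 piglets), a milk sugar made of lactose and sialic acid. TTR-high held 5 control and 1 sialyllactose piglet, the middle 1 and 5, and TTR-low 3 and 3. The share of each diet in TTR-high and TTR-low did not differ detectably (Fisher's exact test, two-sided, p = 0.545), and diet was a covariate in every fit unless stated. The labels name the whole retina as tissue, with no dissection detail and no litter, so p-values measure the spread between these samples.

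The pigment epithelium is the pigmented cell layer behind the photoreceptors. It returns retinoid to them in the visual cycle, engulfs their shed outer segments, moves ions and fluid towards the choroid and secretes proteins into both sides. SERPINF1, which encodes the secreted factor PEDF, and BEST1, a chloride channel of the layer's basal membrane, are among its usual markers. Melanin genes such as TYR and OCA2 serve its pigment granules. A retina sample can hold some of this layer. In bulk tissue, more cells of a type and more RNA per cell cannot be told apart.

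TTR varied by 3.78 on the log2 scale over the 18 arrays, a 13.8-fold range. In TTR-high it was lowest at 7.17, with a median of 7.54 and a highest value of 8.32 in control replicate 4. In TTR-low it ran from 4.54 in control replicate 3 over a median of 5.69 to 6.22. The values were spread without a wide gap at either limit: control replicate 1 (7.17) was the last array inside TTR-high and control replicate 9 (6.93) the first outside. Sialyllactose replicate 4 (6.22) was the first inside TTR-low and sialyllactose replicate 3 (6.32) the nearest outside. The group means were 7.65 ± 0.47 and 5.49 ± 0.68 (SD, n = 6 each), a 4.46-fold ratio, with the middle arrays at 6.62 ± 0.24. Control replicates 3 and 5 (4.54 and 4.78) were the lowest of all arrays, and both belonged to the same diet as the highest array.

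TTR did not differ detectably between the diets. It measured 6.65 ± 1.31 in control (4.54 to 8.32) and 6.52 ± 0.71 with sialyllactose (5.53 to 8.09, n = 9 each), a difference of -0.14 (exact permutation test, two-sided, p = 0.782). Without control replicate 4 the difference was 0.07. The spread between piglets of 1 diet was far wider than the distance between the diets.

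**Figure D1:**
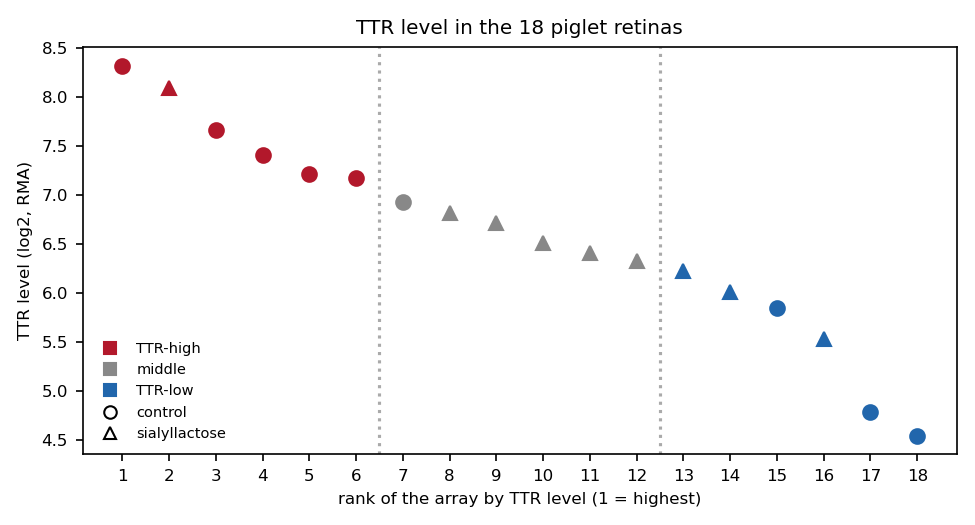
TTR level (log2, RMA) of each of the 18 arrays against its rank, with dotted lines at the limits of the TTR-high, middle and TTR-low groups and symbols for the diets. Levels decline from 8.32 to 4.54, and control piglets take the highest place as well as the 2 lowest.

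No difference in array quality was detected between the groups. Correlations between arrays lay between 0.981 and 0.992. Of 6 array measures (median, spread, mean correlation with the other arrays, and the 3′ minus 5′ difference of the GAPDH, actin and EF1A control probe sets), none differed detectably (exact permutation tests, two-sided, adjusted p from 0.351 to 0.673). The GAPDH 3′ minus 5′ difference, which grows with RNA breakdown, averaged 1.35 in TTR-high and 1.46 in TTR-low (exact permutation p = 0.0931). The groups differed in it by -0.129 without sialyllactose replicate 1 and by -0.134 without sialyllactose replicate 2. In both cases the unadjusted exact permutation p was under 0.05, as for the spread of levels without control replicate 1. EF1A went the same way (1.04 and 1.13) and actin the other (3.15 and 3.09). The part of RNA breakdown in the results was not tested. SAG, rod arrestin, was among the brightest genes at 10.67 ± 0.10 and 10.63 ± 0.09 (n = 6 each), as in neural retina.

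Retinas high in TTR were higher in the gap junction gene GJA1, the calmodulin-like gene CALML4 and the secreted growth factor gene BMP4. Together with an unnamed probe set, these made up the 4 of 16798 tested probe sets that passed the test (0.0238%, limma adjusted p under 0.05). All 4 were higher in TTR-high, and 0 were lower (0%). With no adjustment, 1147 probe sets had p under 0.05 (6.83%; 840 would by chance), of which 565 were higher (3.36%) and 582 lower (3.46%). Exact rank-sum tests, without the diet covariate, gave 0 calls in either direction, and 884 probe sets with p under 0.05 before adjustment. Their smallest possible p was 0.00216. Only the 36 probe sets fully separated upwards and the 23 downwards reached it, too few for a call after adjustment over 16798. That 0 therefore cannot decide on the 4 calls of the fit. The number of calls rested on single arrays. It was 0 without sialyllactose replicate 1 or control replicate 2. Leaving out any of control replicates 1, 4, 6 and 7 or sialyllactose replicates 2 and 4 gave 1 call, and leaving out any of control replicates 3 and 5 or sialyllactose replicate 5 gave 2. Without control replicates 3 and 5 together, a setting added after the data were seen, it was 0.

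GJA1 encodes connexin 43, a channel protein that couples neighbouring cells in the pigment epithelium, in the ciliary epithelium and among glia. It was lowest at 2.89 in TTR-high, with a median of 3.47 and a highest value of 3.88, and ran from 1.74 over 2.26 to 2.51 in TTR-low. Every TTR-high array lay above every TTR-low array, and the middle arrays (2.29 on average) sat close to the TTR-low ones. The diet-adjusted difference was 1.25 ± 0.18 on the log2 scale (SE), or 2.37-fold with a 95% interval of 1.82 to 3.10 (limma adjusted p = 0.0295).

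CALML4 encodes a protein related to calmodulin, the calcium sensor. Its TTR-high levels were 2.13 at the lowest, 3.09 at the median and 3.55 at the highest, and its TTR-low levels 1.64, 1.96 and 2.51. The groups overlapped through control replicate 8, whose 2.13 lay below the sialyllactose replicates 4 and 5 of TTR-low (2.35 and 2.51). The difference was 1.21 ± 0.17 (SE), or 2.31-fold (1.79 to 2.98; limma adjusted p = 0.0295).

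BMP4, a bone morphogenetic protein made by the pigment and ciliary epithelia and by other eye tissues, ran from 2.24 over 2.35 to 2.80 in TTR-high and from 1.51 over 1.90 to 1.94 in TTR-low. The groups did not overlap, and sialyllactose replicate 1 was the highest and control replicate 5 the lowest. The difference was 0.64 ± 0.09 (SE), or 1.56-fold (1.36 to 1.79; limma adjusted p = 0.0295). The unnamed probe set measured 2.60 ± 0.08 in TTR-high against 1.57 ± 0.35 in TTR-low, a difference of 1.12 ± 0.13 (SE) with no overlap (limma adjusted p = 0.0119). All 4 probe sets lay at the dim end of the array, at percentiles of mean level from 15.8 to 27.6.

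Over the 12 fits that each left out 1 array, the differences stayed between 1.14 and 1.35 in GJA1, 1.13 and 1.34 in CALML4 and 0.54 and 0.71 in BMP4. The unnamed probe set passed in 10 of these fits, BMP4 in 2, and GJA1 and CALML4 in 1 each. Sizes were therefore steadier than calls. Within control piglets alone the differences were 1.14 in GJA1, 1.20 in CALML4 and 0.54 in BMP4 (limma adjusted p = 0.816 in each). These differences equal those of the fit without sialyllactose replicate 1. That holds for every gene, because TTR-high then holds control piglets alone and diet is a covariate. Within the 1 and 3 sialyllactose piglets the differences were 1.50 in GJA1, 1.22 in CALML4 and 0.90 in BMP4.

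**Figure D2:**
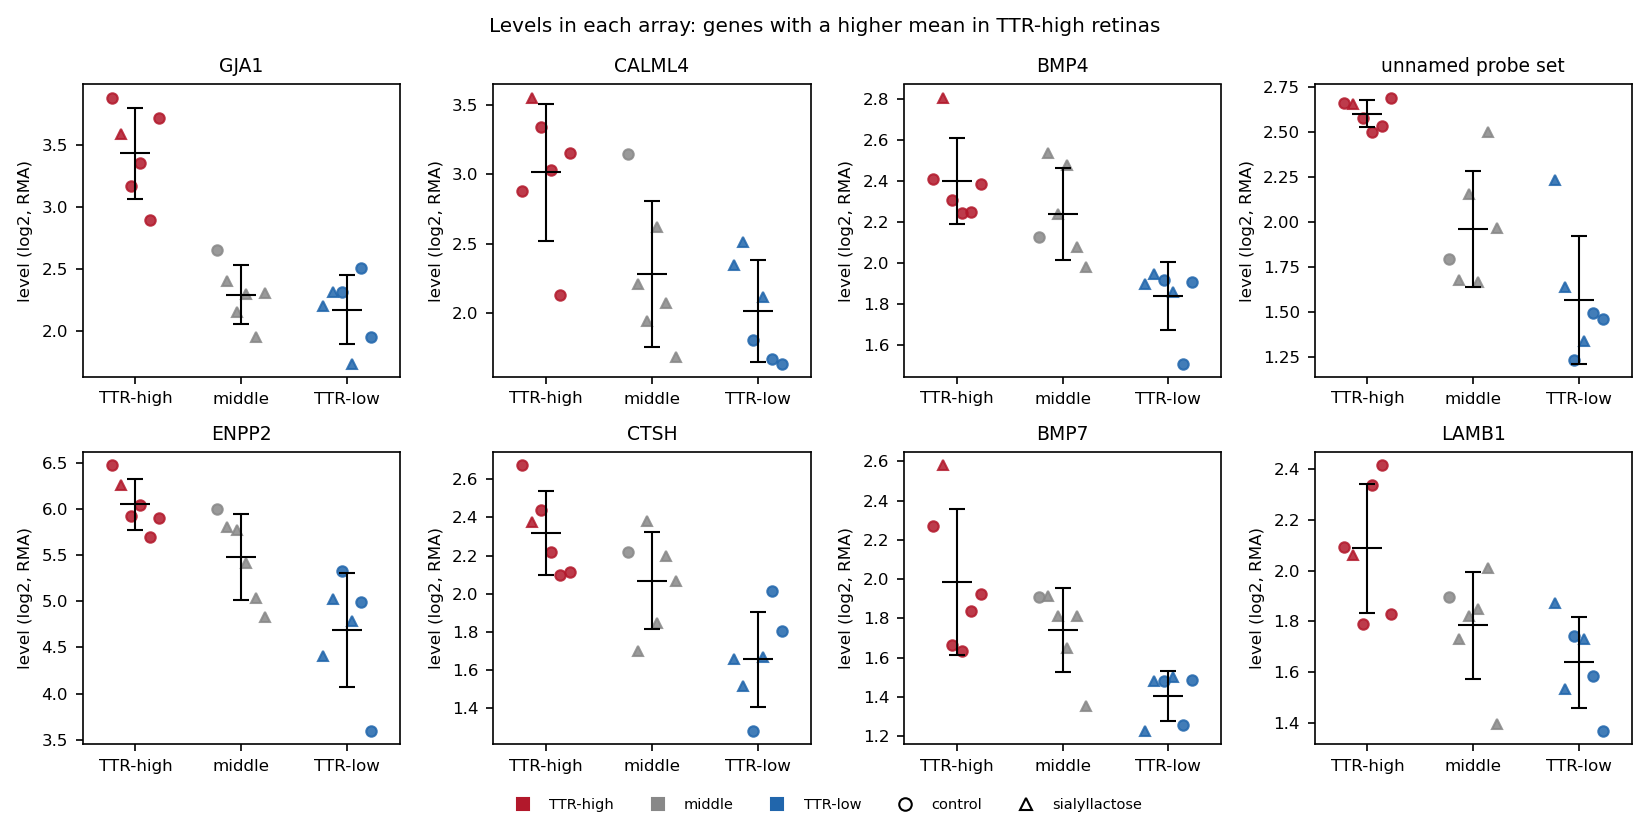
Level (log2, RMA) in each array for 8 probe sets with a higher mean in TTR-high, by group, with the mean and SD as bars and symbols for the diets. In the panels of GJA1, BMP4, the unnamed probe set, ENPP2, CTSH and BMP7 no TTR-high array overlaps a TTR-low one, while CALML4 and LAMB1 overlap.

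Among genes with secreted products known from the pigment epithelium, ENPP2, SERPINF1 and BMP7 had the largest differences, without passing the test. Of the named genes with a difference of at least 1 on the log2 scale, ENPP2 alone was on that list. ENPP2 encodes autotaxin, the enzyme that makes lysophosphatidic acid. It ran from 5.70 over 5.99 to 6.48 in TTR-high and from 3.59 over 4.89 to 5.33 in TTR-low, with no overlap. Its difference of 1.42 ± 0.25 (SE), or 2.67-fold, was larger than in the 3 named genes that passed, and its limma adjusted p was 0.181. Without control replicate 3, the array lowest in both TTR and ENPP2, the difference was 1.08. With the TTR level as a continuous measure over all 18 arrays, ENPP2 passed with a slope of 0.61 per log2 unit of TTR (95% interval 0.45 to 0.77, limma adjusted p = 0.000488; 0.0650 to 0.657 in the fits on 11 arrays). BMP7, a second bone morphogenetic protein, measured 1.99 ± 0.37 against 1.41 ± 0.13, also with no overlap, near the dim end of the array (difference 0.66, limma adjusted p = 0.281).

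SERPINF1 was 4.27 at the lowest, 5.26 at the median and 5.40 at the highest in TTR-high, and 3.46, 4.51 and 5.24 in TTR-low. All but 1 of the 6 TTR-high arrays lay between 5.17 and 5.40, and the exception, control replicate 8, fell among the TTR-low values. In TTR-low, control replicates 3 and 5 (3.69 and 3.46) and sialyllactose replicate 4 (4.05) were low, while the other 3 arrays reached 4.97 to 5.24. The difference was 0.88 ± 0.30 (SE; 1.85-fold, limma adjusted p = 0.589). Without control replicates 3 and 5 it was 0.28.

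Of the 18 tested genes for secreted and carrier proteins of the pigment epithelium, 13 had higher and 5 lower diet-adjusted levels in TTR-high. Among the 18, 1 passed (BMP4) and 5 had an unadjusted p under 0.05. Over all probe sets, 0.0238% passed and 6.83% had such an unadjusted p. Here and in the other lists, higher and lower count the sign of the diet-adjusted difference, whatever its size. The list's mean level was 4.92 to 5.20 in TTR-high arrays and 4.79 to 5.08 in TTR-low arrays, so the ranges overlapped. TIMP3, a metalloproteinase inhibitor of the membrane beneath the layer, differed by 0.18 in its brighter probe set and by -0.12 in the other.

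BEST1 had a lower mean in TTR-high, the opposite of SERPINF1. It ran from 4.21 over 4.29 to 4.57 in TTR-high and from 3.96 over 4.59 to 4.96 in TTR-low. The 3 control piglets of TTR-low (4.75, 4.83 and 4.96) were the highest of all 12 arrays, and the lowest was the TTR-low sialyllactose replicate 5. The difference was -0.35 ± 0.11 (SE; limma adjusted p = 0.576), with -0.47 among control piglets and -0.05 among sialyllactose piglets. Over all 18 arrays BEST1 and SERPINF1 had a Pearson r of -0.28 (permutation p = 0.255, adjusted 0.510 over 2 pairs) and a Spearman rho of -0.25 (permutation p = 0.304, adjusted 0.607). Pearson r was -0.28 again without the 2 arrays farthest from the BEST1 median and -0.38 with the diet means subtracted. Among the 10 tested channels and transporters, 6 had higher and 4 lower diet-adjusted levels, 0 passed and BEST1 alone had an unadjusted p under 0.05. Over all probe sets, 6.83% had such an unadjusted p.

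The retinoid cycle was measured by few genes. RLBP1, the retinaldehyde-binding protein shared by pigment epithelium and Mueller glia, was among the brightest genes of the array at 8.86 ± 0.19 and 8.85 ± 0.23 (n = 6 each), and its difference was -0.02 with a 95% interval of -0.28 to 0.23. Its sign turned to 0.01 without the diet covariate, and to 0.02 per log2 unit of TTR and 0.03 with array weights. BEST1 and RLBP1 had a Pearson r of 0.12 over 18 arrays (permutation p = 0.634, adjusted 0.634), a rho of 0.09 (permutation p = 0.729, adjusted 0.729), an r of 0.33 without the 2 farthest arrays and of -0.01 with diet means subtracted. RPE65, LRAT and RDH5, the enzymes that define the cycle in the pigment epithelium, are not analysed here, since no probe set carries their name.

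Melanin genes ranged from a large difference in GPNMB to one near 0 in TYR. GPNMB, a glycoprotein of melanosomes and of phagocytes, had the largest difference of the lists for this layer after ENPP2. It was 1.82, 2.93 and 4.54 (lowest, median, highest) in TTR-high and 1.24, 1.90 and 2.13 in TTR-low. Control replicate 4, the array with the most TTR, was also the highest in GPNMB, and the groups overlapped. The difference was 1.16 ± 0.39 (SE; limma adjusted p = 0.576).

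OCA2, a melanosomal transporter, measured 1.96 ± 0.23 and 1.65 ± 0.19 (difference 0.26, limma adjusted p = 0.722). TYR, tyrosinase, the first enzyme of melanin synthesis, measured 2.78 ± 0.25 and 2.83 ± 0.23, a difference of -0.02 (95% interval -0.31 to 0.26). Its sign turned to 0.04 per log2 unit of TTR and to 0.10 with array weights. MITF, the transcription factor of pigment cells, differed by 0.16 in the brighter of its probe sets and by -0.15 in the other. TYRP1 was under the level filter, at a mean of 1.28 in TTR-high and 1.08 in TTR-low. Of the 9 tested melanin genes 6 had higher and 3 lower diet-adjusted levels. Among them 0 passed and 2 had an unadjusted p under 0.05, against 0.0238% and 6.83% of all probe sets. The mean level of the 9 genes was 2.39 to 2.81 in TTR-high arrays and 2.22 to 2.38 in TTR-low arrays. Without GPNMB, a setting added after the data were seen, the ranges overlapped, at 2.38 to 2.60 and 2.34 to 2.49 over the other 8 genes.

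No gene on the list of epithelial structure genes passed the test. KRT18, a keratin of simple epithelia, was 2.07, 2.29 and 2.57 in TTR-high and 1.46, 1.95 and 2.10 in TTR-low, where only sialyllactose replicate 4 reached the TTR-high range. The difference was 0.43 ± 0.11 (SE; limma adjusted p = 0.424). EZR, the ezrin of apical microvilli, differed by 0.25 (limma adjusted p = 0.660) and DSP, a desmosomal protein, by 0.34 close to the lower limit of the array (limma adjusted p = 0.530). Of 14 tested junction, keratin and surface genes, 10 had higher and 4 lower diet-adjusted levels, where 49.1% of all probe sets had higher ones. Among the 14, 0 passed and 3 had an unadjusted p under 0.05 (KRT18, DSP and EZR, all higher). Over all probe sets, 0.0238% passed and 6.83% had such an unadjusted p. SOX9, a transcription factor of pigment epithelium and Mueller glia, measured 2.05 ± 0.14 and 1.76 ± 0.15 (difference 0.28, limma adjusted p = 0.576). It was the only 1 of 4 tested transcription factors with an unadjusted p under 0.05, against 6.83% of all probe sets.

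**Figure D3:**
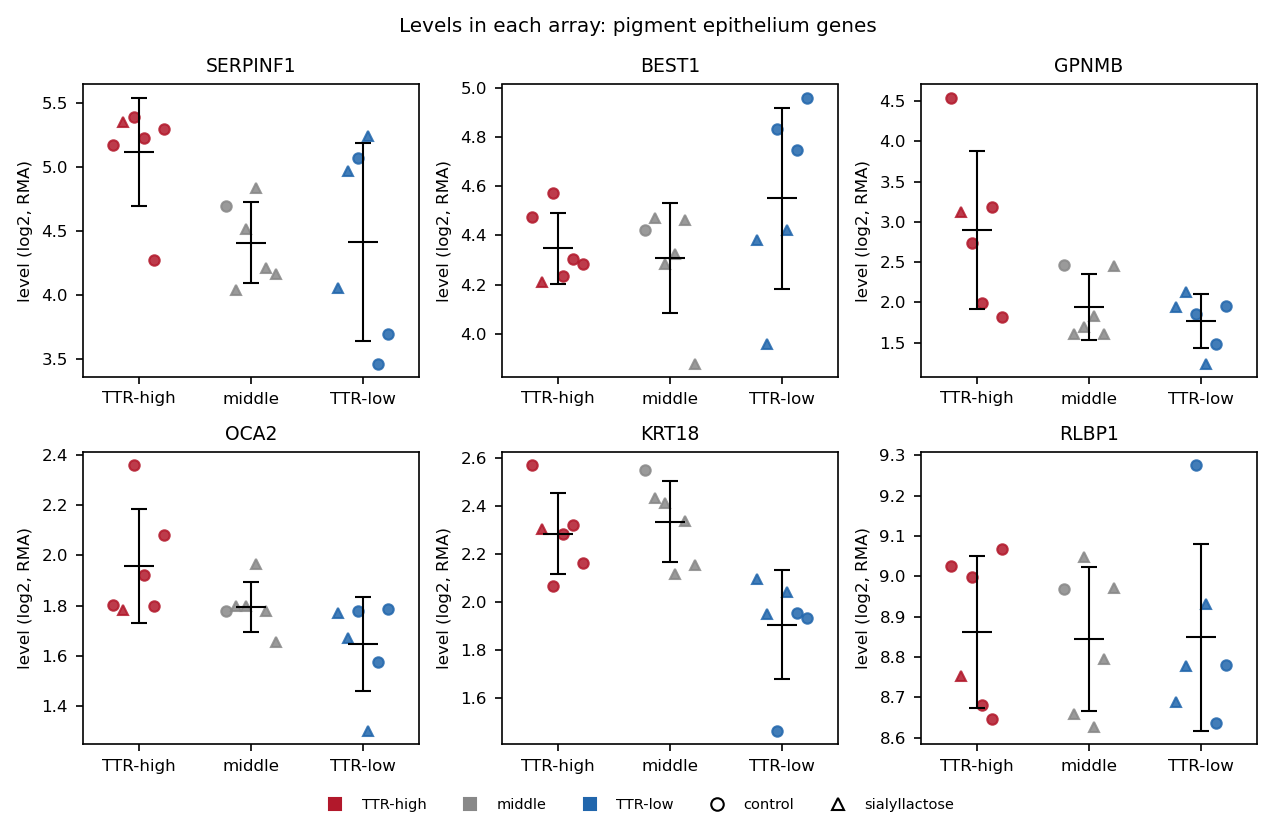
Level (log2, RMA) in each array for 6 pigment epithelium and melanin genes, by group, with the mean and SD as bars and symbols for the diets. SERPINF1 and GPNMB have higher means in TTR-high with overlap, BEST1 a lower one, and RLBP1 the same mean within 0.02.

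Over all lists for the pigment epithelium and melanin, 120 genes besides TTR were listed and 56 were tested. Of these, 38 had higher and 18 lower diet-adjusted levels in TTR-high (49.1% of all probe sets had higher ones) and 1 passed (BMP4). GJA1, which is also found in the pigment epithelium, was placed on the ciliary and iris epithelium list only and is not counted here. In 3 of them, BMP4, ENPP2 and BMP7, every TTR-high array lay above every TTR-low array, as in 0.214% of all probe sets. Without adjustment, p was under 0.05 for 11 higher genes (19.6%, against 3.36% of all probe sets) and 1 lower (BEST1). The lists were written with earlier results of these data known, and each gene counts by its brightest probe set. These shares are therefore a description only. The median difference was 0.05, against -0.0048 over all genes, and 31 of the 56 differences were under 0.1 in size. Large differences were thus found in a minority of these genes. The markers named for this layer went different ways, with SERPINF1 higher, BEST1 lower and RLBP1 and TYR near 0, so the groups are called here by TTR alone.

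**Figure D4:**
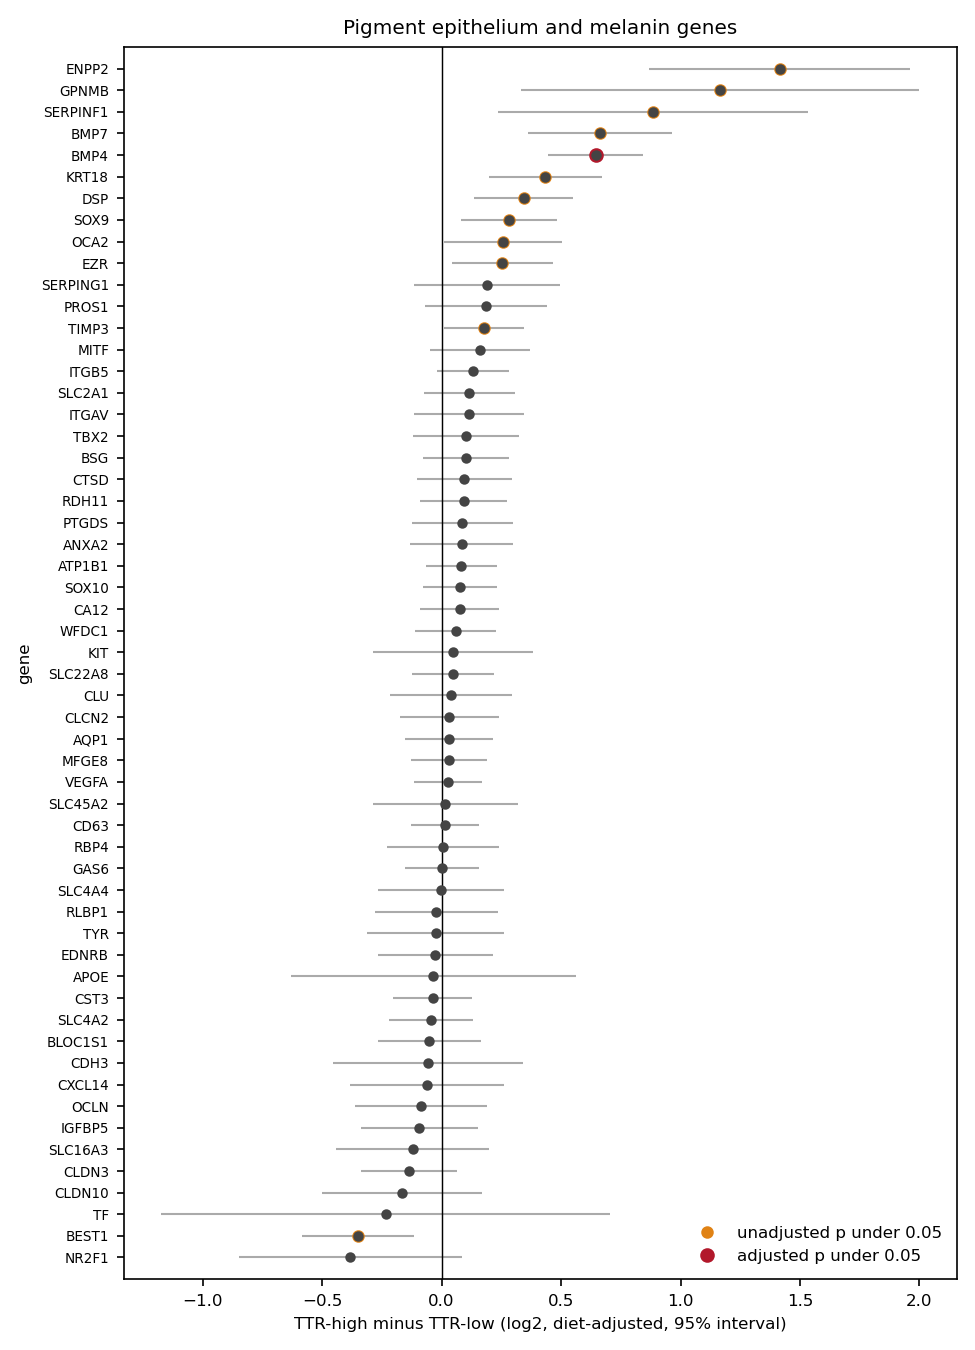
Diet-adjusted TTR-high minus TTR-low difference (log2) with its 95% interval for the 56 tested pigment epithelium and melanin genes, sorted by size, with colours for unadjusted and adjusted p under 0.05. BMP4 alone has an adjusted p under 0.05, 31 differences lie within 0.1 of 0, and BEST1 is the only lower gene with an unadjusted p under 0.05.

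Other tissues that border the retina were described in the same way. The ciliary and iris epithelium list shared BMP4 with the pigment epithelium and held GJA1. Of its 8 tested genes 2 therefore passed, against 0.0238% of all probe sets, with BMP4 counted in both lists. These lists too were written with earlier results of these data known, so such shares are a description only. The mean level of the ciliary and iris list ran from 3.40 to 3.66 in TTR-high and from 3.09 to 3.43 in TTR-low. NDP, the norrin ligand, was on the lower side (difference -0.29, limma adjusted p = 0.701). All 5 tested basement membrane genes had higher diet-adjusted levels, with a median difference of 0.14. Among them LAMB1, a laminin chain, measured 2.09 ± 0.26 against 1.64 ± 0.18 (limma adjusted p = 0.454) and NID2, a nidogen, 1.99 ± 0.25 against 1.62 ± 0.21 (limma adjusted p = 0.576; its difference of 0.40 was 0.26 without sialyllactose replicate 1). The list's mean level was 2.87 to 3.01 in TTR-high and 2.59 to 2.87 in TTR-low. Of 21 genes of choroidal and scleral fibroblasts and matrix, 10 had higher and 11 lower diet-adjusted levels. FN1, fibronectin, differed by 0.31 in its brighter probe set (0.20 without control replicate 5) and by -0.23 in the other. The part of these tissues in the differences was not tested.

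Vessel, blood and immune genes gave no call. Only 0.0238% of all probe sets passed, so lists this short would seldom hold a call. Higher diet-adjusted levels were found in 49.1% of all probe sets. Of 20 endothelial and pericyte genes 14 had higher diet-adjusted levels, among them KDR, a VEGF receptor (3.52 ± 0.17 against 3.30 ± 0.12, limma adjusted p = 0.680). CD34, a surface protein of vessels, was lower in every TTR-high array (3.18 to 3.43) than in any TTR-low array (3.44 to 3.80; difference -0.25, limma adjusted p = 0.574). HBB, the haemoglobin beta chain, differed by 0.05 (95% interval -0.09 to 0.20; 0.03 without control replicate 3 or 4). Of 12 microglia and immune genes 2 had higher and 10 lower diet-adjusted levels, with a median of -0.14. SPI1, a myeloid transcription factor, measured 2.11 ± 0.11 and 2.33 ± 0.30, a difference of -0.25 that moved to -0.11 when control replicate 5 was left out and to -0.40 when control replicate 3 was. Of 25 interferon response genes 8 had higher and 17 lower diet-adjusted levels, with a median of -0.05, and IRF7, which drives interferon genes, measured 2.20 ± 0.12 and 2.56 ± 0.27 (limma adjusted p = 0.637). The mean level of the interferon list spread from 3.04 to 4.24 in TTR-high and from 3.01 to 4.77 in TTR-low, so piglets with strong and with weak interferon genes were in both groups.

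No gene on the neural retina lists passed the test, and GJA1, which is also found in glia, was not on them. With 0.0238% of all probe sets called, such lists would seldom hold a call. For the counts below, 49.1% of all probe sets had higher diet-adjusted levels. All 3 tested rod genes had higher diet-adjusted levels with a median of 0.06, and all 5 tested cone genes lower ones with a median of -0.06. SAG differed by 0.05 (95% interval -0.11 to 0.20), by 0.02 to 0.08 in the fits on 11 arrays and by -0.02 without control replicates 3 and 5. RXRG, a nuclear receptor of cones, measured 2.71 ± 0.25 and 3.01 ± 0.15 (limma adjusted p = 0.700), and OPN1SW, the short-wave cone opsin, 5.01 ± 0.50 and 5.31 ± 0.36 (limma adjusted p = 0.829). The OPN1SW difference of -0.31 was -0.12 without sialyllactose replicate 1, -0.48 without control replicate 7 and -0.55 without control replicate 5. Of 22 Mueller glia genes 14 had higher and 8 lower diet-adjusted levels, with a median of 0.04. Without adjustment, p was under 0.05 for 3 higher and 2 lower of the 22, against 6.83% of all probe sets. DBI, an acyl-CoA binding protein, measured 8.61 ± 0.15 and 8.86 ± 0.34 (limma adjusted p = 0.656). GAD1, the GABA-making enzyme of amacrine and horizontal cells, measured 7.49 ± 0.10 and 7.29 ± 0.10 (limma adjusted p = 0.630). Of 9 ganglion cell genes 4 had higher and 5 lower diet-adjusted levels. The 56 ribosomal protein genes had a median difference of -0.02, with 18 higher and 38 lower.

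On the higher side, the smallest p values among named genes belonged to CALML4, BMP4, GJA1, ENPP2, CTSH, BMP7, CYLD, KRT18, MT-2B, SNTB1, LAMB1 and GGTA1P, with folds of 1.24 to 2.67. CTSH, a lysosomal cathepsin, ran from 2.10 to 2.67 in TTR-high and from 1.28 to 2.01 in TTR-low without overlap (difference 0.65, limma adjusted p = 0.278). MT-2B, a metal-binding metallothionein, measured 5.14 ± 0.19 against 4.62 ± 0.25 (limma adjusted p = 0.432) and CYLD, a deubiquitinase, 2.62 ± 0.14 against 2.29 ± 0.08 without overlap (limma adjusted p = 0.406). Most of them were dim, 10 of the 12 lying under the median level of the table. The 2 tested probe sets of GGTA1P differed in sign. Outside the 3 that passed, adjusted p ran from 0.181 to 0.478 in limma.

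On the lower side 0 probe sets passed, and the lowest adjusted p in limma was 0.181. The 12 named genes with the smallest p were NEK2, ACOX3, TCAP, ACAN, AQP5, AP5Z1, PDLIM4, DAP, HIRIP3, HNRNPL, FAM107B and NFKB1, with folds of 0.457 to 0.838. ACOX3, a peroxisomal oxidase of branched fatty acids, was 2.82, 3.20 and 4.15 (lowest, median, highest) in TTR-high and 4.15, 4.51 and 4.76 in TTR-low. The groups touched but did not overlap, and the difference was -1.13 ± 0.23 (SE; limma adjusted p = 0.259). NEK2, a mitotic kinase measured near the lower limit, ran from 1.21 to 1.53 and from 1.68 to 1.94 (difference -0.45, limma adjusted p = 0.181), and it passed with array quality weights (limma adjusted p = 0.0335; 0.0650 to 0.699 in the fits on 11 arrays). HNRNPL, an RNA splicing factor and the brightest of the 12, measured 5.97 ± 0.27 and 6.57 ± 0.36 (limma adjusted p = 0.406).

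The middle arrays, which neither group used, lay between the TTR-high and TTR-low means in 20 of these 24 genes, against 29.2% of all tested probe sets. These 24 were taken for small p in the same contrast, so nothing is read from that count. Among the 56 pigment epithelium and melanin genes they did so in 22, and those lists too were chosen with earlier results known. All 6 TTR-high arrays lay above all 6 TTR-low arrays in 36 probe sets (0.214%) and below them in 23 (0.137%). A difference of at least 1 on the log2 scale was found in 12 probe sets (0.0714%) and one of -1 or below in 6 (0.0357%). The median size of a difference was 0.07, and the median half-width of its 95% interval was 0.20, so shifts of that size in single genes were not detectable.

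Several genes with wide spread between piglets had large but unstable differences. ALDH1A1, a retinoic acid enzyme of the dorsal retina, was 2.72, 4.86 and 6.97 (lowest, median, highest) in TTR-high and 5.31, 6.39 and 6.86 in TTR-low, with the groups overlapping. Its difference was -1.68 ± 0.54 (SE; limma adjusted p = 0.576) and -0.94 without sialyllactose replicate 1, and both its probe sets had that sign. The immediate early gene FOS, induced by neural activity and handling, measured 3.06 ± 0.50 and 4.01 ± 1.08 (difference -1.15, limma adjusted p = 0.630; -0.69 without control replicate 3 and -1.74 without control replicate 5). EGR1 of the same class measured 2.92 ± 0.77 and 3.42 ± 0.64, a difference of -0.59 that shrank to -0.29 when sialyllactose replicate 1 was left out and to -0.38 when control replicate 3 was, and grew by over 1.5 times when control replicate 5 was. ZFP36 measured 2.56 ± 0.20 and 2.88 ± 0.15. SST, the neuropeptide somatostatin, was above 6 in control replicate 4 and sialyllactose replicate 1 (6.22 and 6.91), the 2 arrays highest in TTR, and between 2.82 and 4.40 in the other 10 of the 12. Its difference was 1.25 ± 0.66 (SE; limma adjusted p = 0.777) and 0.27 without sialyllactose replicate 1.

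**Figure D5:**
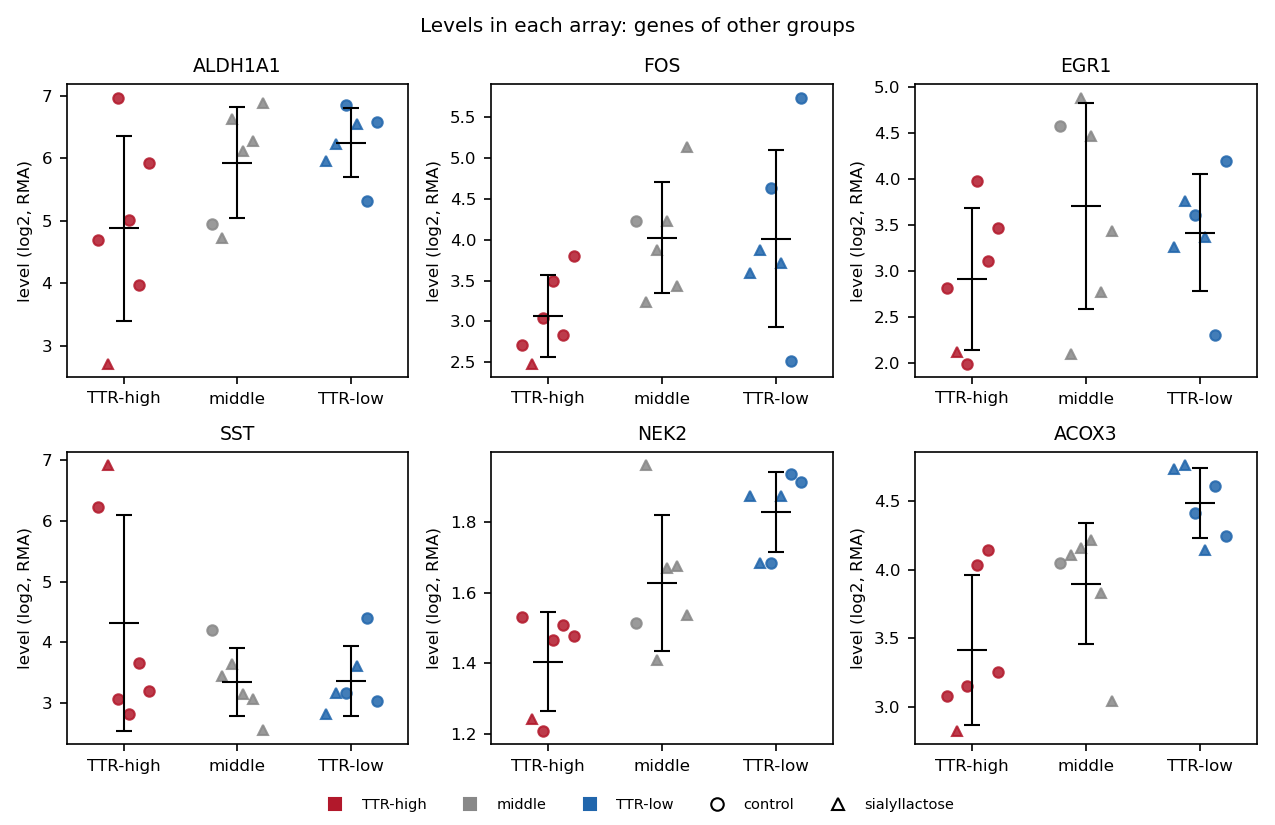
Level (log2, RMA) in each array for 6 genes of other groups, by TTR group, with the mean and SD as bars and symbols for the diets. ALDH1A1, FOS, EGR1 and SST vary widely within groups and overlap between them, while NEK2 and ACOX3 are lower in every TTR-high array than in any TTR-low array.

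The difference between TTR-high and TTR-low was also compared between the diets. In limma 0 probe sets passed for the interaction of TTR group and diet (lowest adjusted p 0.0912), and 489 had an unadjusted p under 0.05 (2.91%). With 1 sialyllactose piglet in TTR-high, this test had little to work with. With TTR as a continuous measure over 18 arrays, the interaction passed in 1 unnamed probe set. No named gene was shown to differ between the diets in its relation to TTR.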

How the data were processed

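RNA of 18 piglet retinas was measured on 1 array each. The submitters' processing notes name the Affymetrix Expression Console and RMA, and the authors deposited 1 log2 value per probe set and array. RMA gives all arrays 1 distribution, carries no detection call and compresses differences of dim probe sets. Of 24123 probe sets, 124 control sets, the 30% dimmest of the rest (7200) and the TTR probe set were left out, which left 16798, of which 7791 had 1 gene symbol in the platform annotation (5709 genes). In the file 10099 probe sets had 1 symbol, 198 several and 13826 none; 9989 identifiers matched a RefSeq gene table and 0 symbols changed.

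Arrays were ranked by the TTR value, and TTR-high minus TTR-low was fitted with limma 3.58.1 in R 4.3.3 (lmFit, eBayes, diet as covariate), with Benjamini-Hochberg adjustment over all tested probe sets and a threshold of 0.05. Fold is 2 to the power of the log2 difference. A gene is represented by its brightest tested probe set; of 120 genes taken by the rule, 20 had more than 1, and in 11 of these they differed in sign. The rule took the calls, filled to 12 per direction by p, all tested pigment epithelium and melanin genes, up to 6 members of other lists with a call and up to 2 of the rest. SST, EGR1, GPX1 and PHYH were chosen after their values were seen, as was which of the genes taken by the rule the text describes singly. The TTR grouping, the rule and the 32 gene lists were chosen with earlier results of these data known. No gene coordinates or sequences are given. The fit was tested on simulated data. Replicate numbers pair no piglets.

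Alternatives were other filters, scalings and covariates, all 18 arrays, TTR as a continuous measure, array weights, a replicate block, a trended robust prior, rank-sum tests, single diets, a threshold of 0.1, means over a gene's probe sets and leaving out each array. Ranking by another TTR probe set was not run, because 1 TTR probe set is named.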

Additional observations from a re-analysis of the deposited data

Results flagged for a closer look

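In 128 groups of 6 or 9 arrays, 11 had 1 array far from its group by Dixon's criterion, where 6.4 would be expected by chance. Sialyllactose replicate 1 was high in BMP4 within TTR-high (2.80, the others 2.24 to 2.41) and high in TTR among the sialyllactose piglets (8.09, the others 5.53 to 6.82). Control replicate 5 was low in BMP4 within TTR-low (1.51, the others 1.86 to 1.94) and high in HIRIP3, a histone chaperone partner (2.96, the others 2.58 to 2.71).

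Control replicate 2 stood apart within TTR-low 4 times. It was low in KRT18 (1.46, the others 1.93 to 2.10) and in FAM107B (1.53, the others 1.86 to 1.96), high in ZFP36 (3.18, the others 2.77 to 2.88), and had the lowest mean correlation with the other arrays (0.983). Without it 0 probe sets passed.

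Within TTR-high, control replicate 8 was low in SERPINF1 (4.27, the others 5.17 to 5.40), control replicate 7 was high in OPN1SW (5.99, the others 4.61 to 5.01), and control replicate 1 had the smallest SD of levels (1.78, the others 1.80 to 1.81).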

How the results depend on the processing

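The main count of 4 called probe sets was 5 with no filter on dim probe sets, and 4 with arrays centred, quantile normalization, a trended robust prior or a threshold of 0.1, all of which kept the same 4. With all 18 arrays it was also 4, of which 3 were shared, and CALML4 was lost (limma adjusted p = 0.274). It was 0 with the 50% filter, which removed all 4 before the test. Exact rank-sum tests also gave 0, where too few probe sets reached the smallest possible p of 0.00216 for a call. The count was 2 without the diet covariate (CALML4 at a limma adjusted p of 0.308 and BMP4 at 0.161 were lost). It was 7 with array quality weights and 8 with TTR as a continuous measure. In control arrays alone it was 2, in sialyllactose arrays alone 0, and without control replicates 3 and 5 it was 0. Leaving out 1 array gave 0 to 4. With the replicate block it was 4 (consensus correlation 0.0857), and the same 4 probe sets passed; the block changed no other call. Over the other 24 fits that tested them, the limma adjusted p ran from 0.00172 to 0.816 in GJA1, 0.000119 to 0.816 in CALML4 and 0.0117 to 0.816 in BMP4. In all 3 genes the highest value came from control arrays alone. The continuous fit shared 3 calls with the main one (GJA1, BMP4 and the unnamed probe set) and the interaction with continuous TTR gave 1. Lower calls appeared only in 4 of the settings: NEK2 with array weights, and an unnamed probe set with all 18 arrays, control arrays alone or without sialyllactose replicate 5.

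Of 56 genes, 53 kept their direction in every alternative run. RLBP1 turned to 0.0137 without diet, 0.0209 with continuous TTR and 0.0288 with array weights, and ran from -0.11 to 0.10 when 1 array was left out. TYR turned to 0.0371 with continuous TTR and 0.10 with array weights, and ran from -0.17 to 0.12. SAG was -0.0182 without control replicates 3 and 5. Of 640 list medians under alternatives, 3 moved by more than the spread between arrays: pigment transcription factors (0.0156 with gene means over probe sets, main 0.13), basement membrane (0.22 without diet, main 0.14) and Mueller glia (0.13 without control replicate 2, main 0.04; -0.0047 to 0.13 over the fits without 1 array). BEST1 with RLBP1 had an r of -0.0111 with diet means subtracted. Leaving out 1 array, TTR by diet differed by -0.40 to 0.0700 (the latter without control replicate 4). The array measures ran from 0.0066 to 0.0131 in the SD of levels, -0.134 to -0.0616 in the GAPDH and -0.0329 to 0.114 in the actin 3′ minus 5′ difference (-0.0329 without sialyllactose replicate 1). The cause of these changes was not tested. RMA values carry no detection call, so levels near the dim end have no stated precision.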

Other observations

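Outside the lists, GPX1, a glutathione peroxidase, and PHYH, which starts the peroxisomal breakdown of branched fatty acids, had diet-adjusted differences above 1 on the log2 scale. Both were chosen after their values were seen. GPX1 was 5.49, 6.09 and 6.73 (lowest, median, highest) in TTR-high and 3.51, 5.61 and 6.42 in TTR-low, where control replicates 5 and 3 (3.51 and 3.90) lay far below all other arrays and sialyllactose replicate 2 (5.46) just below the TTR-high range. The difference was 1.27 ± 0.40 (SE; limma adjusted p = 0.576), and 0.32 without control replicates 3 and 5. PHYH was 3.37, 4.33 and 4.87 in TTR-high and 2.40, 3.05 and 4.41 in TTR-low, and sialyllactose replicate 5 alone of TTR-low lay above 4 there. Its difference was 1.10 ± 0.32 (SE; limma adjusted p = 0.539), and 1.13 without control replicates 3 and 5.

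Another unnamed probe set, not among the 4 that passed between the groups, followed TTR over all 18 arrays with the smallest p of the continuous fit, at 0.60 per log2 unit of TTR (95% interval 0.47 to 0.72, limma adjusted p = 6.01e-05). It measured 4.66 ± 0.37 in TTR-high, 4.03 ± 0.36 in the middle arrays and 3.42 ± 0.56 in TTR-low (n = 6 each), and the high and low groups did not overlap. In the comparison of 6 against 6 its difference was 1.33 ± 0.25 (SE; limma adjusted p = 0.181). This difference ran from 1.05 to 1.59 over the fits that each left out 1 array, and the probe set passed in 0 of them. Without control replicates 3 and 5 the difference was 0.95.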
